A study of Mus musculus with 2 samples.

Results

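Endothelial and endocardial identity genes are 35 genes whose products build, signal through or transcriptionally specify the lining of blood vessels and of the heart cavities. They were taken by symbol from the GENCODE M21 gene tables (mouse build mm10), where all 35 were found among 55536 annotated genes. The tissue was whole heart from mouse embryos of strain B6NCrl at 12.5 days, with male and female embryos pooled. Both libraries belong to 1 group, embryonic heart without treatment or genetic change, and the labels give them separate biosamples but the same donor identifier. Libraries were made from 10 ng of oligo-dT-primed RNA by Nextera tagmentation, with ERCC spike-in RNA added. No condition was compared, so levels are described over both libraries and the libraries are then set against each other.

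The endothelium is the inner cell layer of every vessel, and the endocardium is its counterpart inside the heart. Its cells are held together by cadherin and claudin junctions, read angiopoietin and adrenomedullin signals through surface receptors, and owe much of their identity to ETS-family transcription factors. In the embryonic heart the endocardium also gives rise to valve mesenchyme and to part of the coronary vessels. Several of the 35 genes are also used outside this lineage: Prox1 in heart muscle and liver, Pdpn in the epicardium, Aqp1 in red blood cells, Vwf and Pecam1 in megakaryocytes and platelets, and Cd34 and Fli1 in blood progenitors.

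Replicates 1 and 2 held 35520161 and 32577548 estimated reads, and spike-ins took 3.58% and 3.63% of them. The spread between the libraries was small, with a biological coefficient of variation of 4.56% by edgeR over 17160 genes. Markers of other cell types were measured beside the members. Of all genes tested, 4.63% passed the test described below as higher in replicate 2 and 5.01% as lower. Summed hepatocyte markers (8 genes, led by Afp and Apoa2) fell from 173.1 TPM in replicate 1 to 37.7 TPM in replicate 2, and all 8 passed the test described below as lower. Summed megakaryocyte and platelet markers (8 genes, led by Pf4 and Itga2b) stood at 99.8 and 131.6 TPM, and 5 of 8 passed as higher in replicate 2. Erythroid markers (8 genes, led by Hbb-y and Hba-x) summed to 32537 and 29193 TPM, with 5 of 8 passing as lower. Heart muscle markers (8 genes, led by Actc1 and Myl2) summed to 34952 and 35282 TPM, with 4 passing as higher and 3 as lower. Their log2 ratios lay between -0.14 and 0.12, so genes with many reads passed at small differences. None of 8 epicardial markers (274.4 and 270.2 TPM, led by Krt19 and Tcf21) and none of 8 macrophage markers (117.8 and 122.4 TPM, led by Lyz2 and C1qb, with Ptprc under 1) passed by the exact binomial test, although 2 in each list had an unadjusted p under 0.05. The 6 foregut and lung endoderm markers summed to 4.44 and 8.11 TPM, led by Epcam and Cldn6, with Sox2, Foxa1 and Sftpc under 1 in both libraries and 1 passing as higher. Their part in the results below was not tested, and in whole tissue fewer cells of a type and less RNA per cell cannot be told apart.

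The median level of the 35 listed members lay above that of detected protein-coding genes. A gene counted as detected if its TPM reached 1 in each library; TPM divides reads by transcript length, so levels can be compared between genes. By that rule 34 of 35 members were detected, against 56.6% of 22028 protein-coding genes, and the exception was Sele. The within-library median over members was 37.3 and 40.2 TPM (38.7 ± 2.07, SD, n = 2). The median of 12468 detected protein-coding genes was 19.05 ± 0.163 TPM (SD, n = 2), and 25 of 35 members exceeded it in both libraries. Together the 35 genes summed to 1576 ± 47.4 TPM (SD, n = 2). Receptor and signalling genes held the largest share of this sum, 595 ± 15.7 TPM over 10 genes. Surface glycoproteins with the caveolar and channel genes held 451 ± 9.49 TPM over 9. Junction genes (193 ± 12.6 TPM over 6) and transcription factors (185 ± 6.37 TPM over 7) followed, and the 3 secreted and matrix genes held 152 ± 3.27 TPM.

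**Figure D1:**
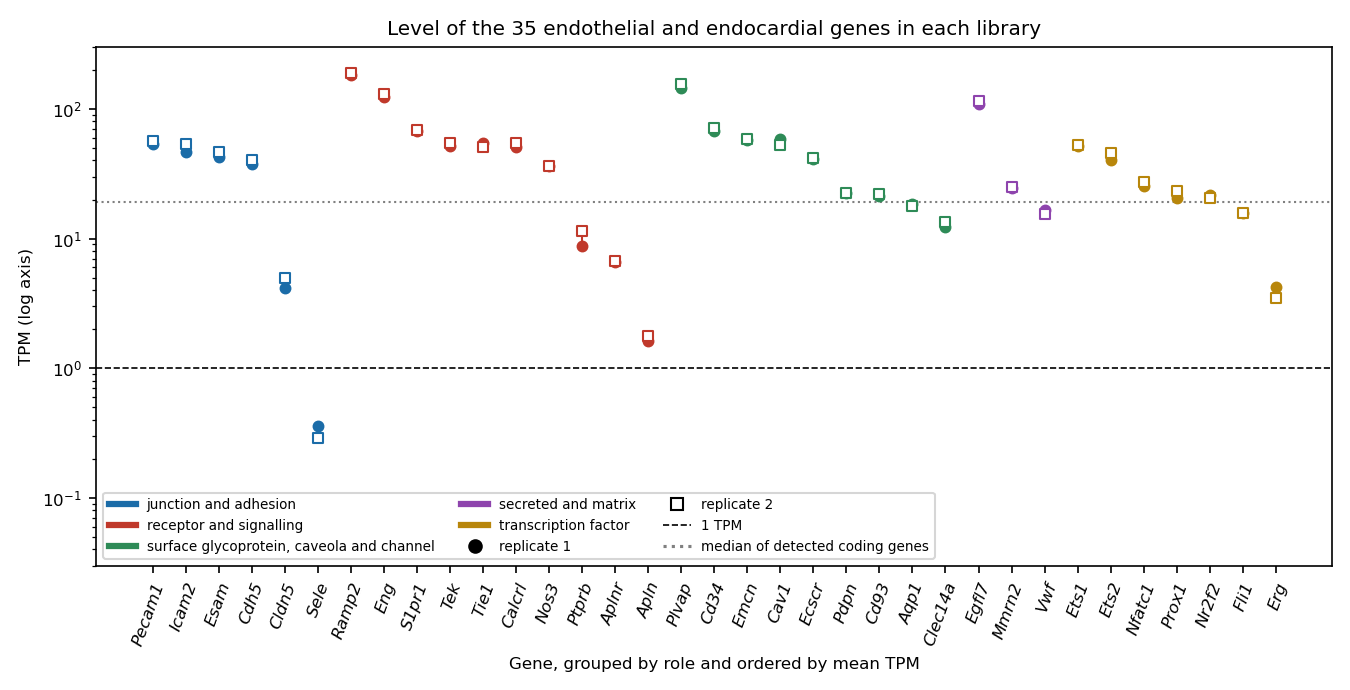
TPM (log axis) of the 35 genes in replicate 1 (filled circles) and replicate 2 (open squares), coloured by role, with 1 TPM dashed and the median of detected protein-coding genes dotted. Ramp2, Plvap, Eng and Egfl7 lie above 100 TPM in both libraries, and Sele lies below 1 in both.

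With all transcripts of a gene counted, Ramp2 was first in the order of levels, followed by Plvap, Eng and Egfl7. On coding transcripts alone Ramp2 (86.7 and 107.9 TPM) lay below Plvap (144.3 and 156.9 TPM) and Eng (118.2 and 124.7 TPM). Egfl7 (68.7 and 71.4 TPM) then overlapped Cd34 (66.1 and 70.1 TPM). With all transcripts counted, Ramp2, Plvap, Eng and Egfl7 were the 4 members with at least 100 TPM in both libraries. No library value of any of them then overlapped the next gene in the order. Below them the order was less firm: of 34 neighbouring pairs, 15 had overlapping library values. Emcn, Cav1, Pecam1, Tek, Tie1, Calcrl, Ets1 and Icam2 formed an unbroken run of overlapping neighbours between 46.75 and 58.99 TPM. The order of neighbours within this run is not resolved, but genes further apart in it can be separate. Emcn (57.75 and 58.99 TPM) lay above Pecam1 (53.2 and 56.9 TPM) and every later gene of the run in both libraries. At the lower end, Cldn5 and Erg overlapped each other, whereas Apln and Sele stood apart.

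Junction and adhesion genes came first by function. Pecam1, a homophilic adhesion molecule of endothelial contacts, had 53.2 TPM in replicate 1 and 56.9 in replicate 2. Icam2, an adhesion molecule that binds leukocyte integrins, had 46.75 and 53.3 TPM. Esam, an immunoglobulin-family adhesion molecule of tight junctions, had 42.7 and 46.6 TPM, and Cdh5, the VE-cadherin of adherens junctions, had 37.3 and 40.2 TPM. All 4 were thus in one narrow band, each with the higher value in replicate 2. Cldn5, the tight junction claudin best known from the blood-brain barrier, was far lower at 4.12 and 5.00 TPM. Within a library Cdh5 exceeded Cldn5 by a log2 ratio of 3.09 ± 0.12 (SD, n = 2). Sele, a selectin induced on inflamed endothelium, had 0.36 and 0.29 TPM, from 25 and 18 reads. The 95% interval of its log2 ratio between libraries, -1.31 to 0.58, was the widest of all members.

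Pecam1 (chr11:106654217-106750628, minus strand) was read mainly as forms that lack parts of the cytoplasmic tail. The dominant transcript, Pecam1-203, took 60.3% and 62.1% of the gene's TPM, and it lacks a 57-base coding exon at chr11:106671742-106671798. Transcripts with that exon held 39.1% in replicate 1 and 36.2% in replicate 2 (37.7 ± 2.03%, SD, n = 2), over the transcript models that span it. The exon is known to encode a tyrosine-based inhibitory motif, which is why it is printed, from GENCODE M21 with the exon in capitals and 15 coding bases of each neighbour in lower case. A further tail exon of 23 bases at chr11:106662002-106662024, whose length is not a multiple of 3, was present in 16.6% and 13.0%.
Pecam1 57-base exon: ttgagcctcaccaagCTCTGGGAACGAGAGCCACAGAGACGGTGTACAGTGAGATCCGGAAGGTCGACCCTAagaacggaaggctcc
Pecam1 23-base exon: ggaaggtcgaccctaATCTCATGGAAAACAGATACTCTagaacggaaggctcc
Both shares were slightly higher in replicate 1. With both exons the coding sequence is 2181 bases (Pecam1-204), with the longer exon alone 2148 (Pecam1-202) and with neither 2091 (Pecam1-203); the stop codon is not counted in these lengths.

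The receptors and signalling genes include Ramp2 and its partner. Ramp2, the accessory protein that turns the calcitonin-like receptor into an adrenomedullin receptor, stood at 182.3 and 190.4 TPM, more than 96.8% of protein-coding genes. Calcrl, the receptor it partners, had 51.0 and 54.1 TPM, so Ramp2 exceeded Calcrl 3.55-fold per length in both libraries (log2 ratio 1.83 ± 0.02, SD, n = 2). Without division by length the counts of the pair were close (log2 ratio 0.14). Both genes carried much of their TPM in transcripts that are not typed protein coding. For Ramp2 these were 52.5% and 43.3%, chiefly the retained-intron model Ramp2-205 (39.2% and 32.6%), and the leading model was Ramp2-205 in replicate 1 but the coding Ramp2-204 in replicate 2. For Calcrl they were 37.0% and 36.5%, all from Calcrl-203, a 500-base processed transcript that took only 5.42 ± 0.04% (SD, n = 2) of the gene's counts. TPM of coding transcripts alone was 86.7 and 107.9 for Ramp2 and 32.1 and 34.3 for Calcrl. Ramp2 also shares exonic bases with Vps25 on the same strand, and the assignment error of its reads was 27.4 and 21.9 reads of 3842 and 3572.

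Eng, the TGF-beta co-receptor endoglin, had 124.1 and 131.0 TPM. It is known as a long form and a short form that differ in the cytoplasmic tail, and both were present. Eng-202 keeps a 139-base intron at chr2:32681298-32681436 and so ends its coding sequence at 1923 bases, where Eng-201 has 1959. Models with the retained intron held 14.9% of TPM in replicate 1 and 19.6% in replicate 2 (17.25 ± 3.31%, SD, n = 2). The coding part of that intron, through its stop codon, is given in capitals after 15 bases of the preceding exon, because it is the stretch that sets the short tail.
Eng retained intron, coding part: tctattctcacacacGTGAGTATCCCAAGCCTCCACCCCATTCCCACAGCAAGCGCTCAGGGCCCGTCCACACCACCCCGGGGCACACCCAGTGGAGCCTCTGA
The short form was higher in replicate 2 in share, with an assignment error of 204 and 247 reads on 1254 and 1571 reads of Eng-202. An alternative exon start that adds 3 bases (chr2:32657516-32657518) was used in 76.6% and 82.6%. Eng overlaps exonic bases of Fpgs on the opposite strand (15.2 ± 0.90 TPM, SD, n = 2), and use of strand in counting is not given in the sources used here.

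The angiopoietin receptor Tek and its relative Tie1, an orphan receptor tyrosine kinase that pairs with it, had close levels. Tek had 52.1 and 55.0 TPM and Tie1 had 54.35 and 51.2 TPM. The log2 ratio of Tie1 to Tek was 0.06 in replicate 1 and -0.10 in replicate 2, so the sign changed between the libraries. Ptprb, the endothelial phosphatase VE-PTP that acts on Tek and VE-cadherin, was lower, at 8.72 and 11.4 TPM. Cdh5 exceeded Ptprb by a log2 ratio of 1.96 ± 0.19 (SD, n = 2) on TPM. The mean log2 ratio was 2.48 with the M4 annotation and 0.82 with counts not divided by length.

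Tek (chr4:94739289-94874976, plus strand) is cut into forms with and without a 153-base coding exon at chr4:94799127-94799279. Models with the exon held 91.4% and 90.5% of TPM (90.9 ± 0.69%, SD, n = 2). The exon, printed in capitals because the minor receptor form lacks it, has a length that is a multiple of 3, so the reading frame continues without it.
Tek 153-base exon: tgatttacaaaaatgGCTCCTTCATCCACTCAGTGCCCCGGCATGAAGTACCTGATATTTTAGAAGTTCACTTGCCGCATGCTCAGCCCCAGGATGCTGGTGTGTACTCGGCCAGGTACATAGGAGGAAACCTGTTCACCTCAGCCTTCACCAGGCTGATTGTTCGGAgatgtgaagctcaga
Skipping was thus the minor form in both libraries, from 480 and 518 estimated reads of Tek-202. A 3-base extension of another Tek exon (chr4:94851875-94851877) was kept in 80.2% and 81.7%. Ptprb was read from separate starts. The upstream start (Ptprb-203 and 2 minor models, coding sequence of 6855 bases in Ptprb-203) held 63.9% and 68.9% of TPM, and the downstream start (Ptprb-201, 5994 bases) held 36.1% and 31.1%. By counts they were nearer to even, with 46.6 ± 4.39% (SD, n = 2) from the downstream start.

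The remaining receptor and signalling genes spanned a wide range. S1pr1, the sphingosine-1-phosphate receptor that stabilises vessels, had 67.3 and 68.1 TPM, and Nos3, the endothelial nitric oxide synthase, had 35.95 and 36.5 TPM. The coefficient of variation between libraries was 0.877% for S1pr1 and 1.07% for Nos3. Aplnr, the apelin receptor, had 6.63 and 6.71 TPM, and its ligand gene Apln had 1.62 and 1.78 TPM. Receptor exceeded ligand by a log2 ratio of 1.97 ± 0.08 (SD, n = 2). Nos3 overlaps exonic bases of Atg9b and Gm15587 on the opposite strand, at 1.56 ± 0.62 and 0.92 ± 0.11 TPM (SD, n = 2).

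Plvap led the surface genes. Plvap, which forms the diaphragms of fenestrae and caveolae, stood at 144.3 and 156.9 TPM. Cd34, a sialomucin of endothelium and blood progenitors, had 67.5 and 71.2 TPM, and Emcn, the endothelial sialomucin endomucin, had 57.75 and 58.99 TPM. Cav1, the caveolar coat protein, had 58.7 and 52.35 TPM. Ecscr, an endothelial surface protein of cell motility, had 41.4 and 42.0 TPM. Cd34 overlaps exonic bases of Gm16897 and Ecscr those of 1700066B19Rik on the opposite strand, at 0.56 ± 0.06 and 0.31 ± 0.13 TPM (SD, n = 2). Of Plvap, Cd34, Emcn, Cav1 and Ecscr, Cav1 alone had its lower value in replicate 2. Pdpn, the mucin podoplanin of lymphatic endothelium and epicardium, had 22.3 and 22.4 TPM, and Cd93, a lectin-like receptor, had 21.4 and 22.25 TPM. Aqp1, a water channel, had 18.4 and 17.9 TPM, and Clec14a, another lectin-like receptor, had 12.3 and 13.3 TPM. The last 2 lay below the median of detected protein-coding genes.

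Transcript forms divided 3 of these genes. Cd34 (chr1:194938819-194961279, plus strand) is known as a full-length form and a form with a truncated cytoplasmic tail. The full-length model Cd34-201 (coding sequence of 1146 bases) held 60.7% and 63.4% of TPM, and Cd34-202 (975 bases), whose exon runs 156 bases further at chr1:194959780-194959935 and stops early, held 37.3% and 35.04%. Emcn models with a 39-base exon (chr3:137403984-137404022) held 33.3% and 31.3%, and those with a 114-base segment (chr3:137391593-137391706) held 81.0% and 83.5%. Cav1 (chr6:17306335-17341452, plus strand) makes the alpha and beta forms of caveolin-1 from separate starts. The beta start, Cav1-202 with 3 minor models, held 30.3% and 27.2% of TPM and 29.8 ± 1.37% (SD, n = 2) of counts. Its coding sequence (441 bases) equals the last 441 bases of the alpha one (534), so the forms differ by the 93 coding bases in capitals, at chr6:17306450-17306479 and chr6:17307881-17307943, in front of the beta start codon. The Cd34 line shows the early end in capitals and the Emcn line the 39-base exon.
Cd34-202 coding end: acaggagaaaggctgGAGCTGGAACCTTGA
Emcn 39-base exon: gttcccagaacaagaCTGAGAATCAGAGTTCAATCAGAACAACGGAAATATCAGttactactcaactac
Cav1 alpha-only coding bases: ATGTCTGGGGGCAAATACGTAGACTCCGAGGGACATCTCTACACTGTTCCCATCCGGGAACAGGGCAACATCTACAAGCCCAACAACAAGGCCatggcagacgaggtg
The shares of these forms differed between the libraries by a few percentage points at most, and the same form led in both.

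**Figure D2:**
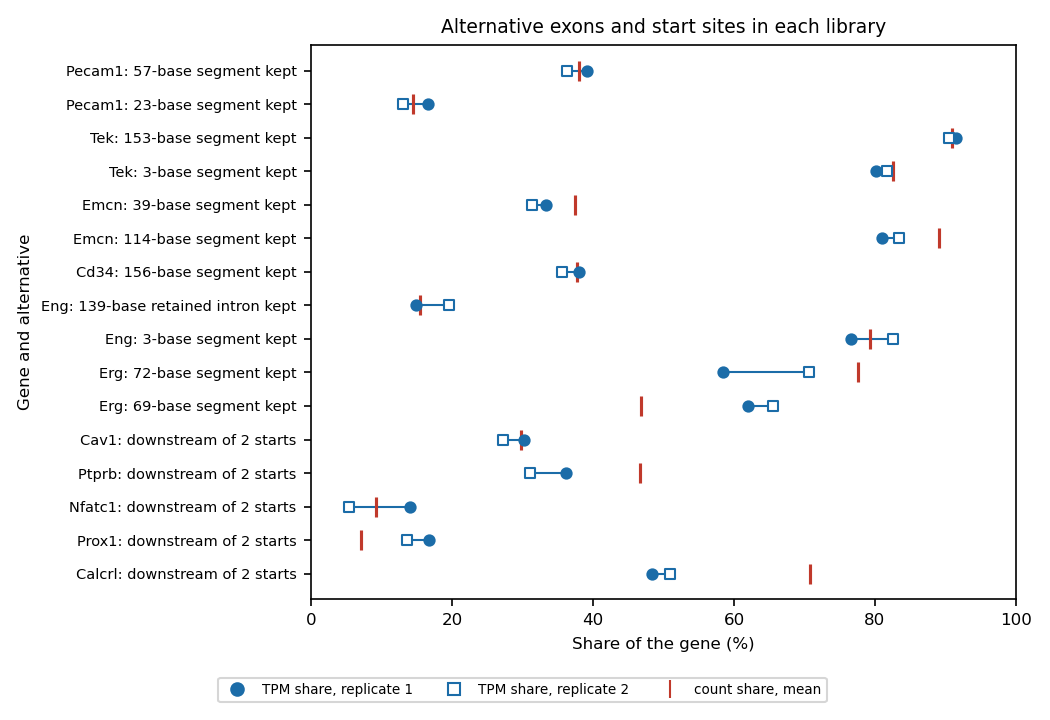
Share of each gene's transcripts (percent) that keep an alternative segment, over models that can be assigned, or that begin at the downstream of the gene's start sites, over all models. Filled circles are TPM shares in replicate 1, open squares those in replicate 2 and red ticks the mean share of counts. Tek keeps its 153-base exon at 91.4% and 90.5%, and for Calcrl, Erg and Ptprb the TPM and count shares lie more than 10 percentage points apart.

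Secreted and matrix genes were led by Egfl7, an endothelial matrix protein that guides vessel tube formation, at 108.4 and 114.0 TPM. Mmrn2, an extracellular matrix glycoprotein that binds Cd93 and Clec14a, had 24.5 and 24.9 TPM, and Vwf, the clotting factor stored in endothelial granules and platelets, had 16.7 and 15.4 TPM. Mmrn2 was close to Cd93 (Cd93/Mmrn2 log2 ratio -0.18 ± 0.03, SD, n = 2) and above Clec14a (Clec14a/Mmrn2 log2 ratio -0.95 ± 0.07). Vwf was lower in replicate 2 by TPM but not by counts, where its log2 ratio was 0.09 (95% interval -0.01 to 0.18). The full-length Vwf-203 had 7.15 and 7.93 TPM, whereas the 456-base processed transcript Vwf-209 had 5.07 and 4.06 TPM on 44.7 and 32.35 reads. Vwf-209 took 30.3% and 26.3% of the gene's TPM but 2.17 ± 0.46% (SD, n = 2) of its counts. TPM of coding Vwf transcripts was 8.43 and 9.52, so the lower value in replicate 2 lay in the models not typed protein coding.

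Egfl7 (chr2:26580014-26593120, plus strand) had 19 annotated transcripts, the most of any member. Egfl7-202, with the 834-base coding sequence, led in both libraries but held only 32.1% and 31.4% of TPM. Transcripts that begin with it at the start near chr2:26583880 held 39.0 ± 0.60% of TPM and 60.2 ± 1.01% of counts (SD, n = 2). Models not typed protein coding held 36.6% and 37.3%, chiefly the single-exon models Egfl7-213 (16.8% and 17.4%) and Egfl7-214 (11.9% and 12.8%). Egfl7 overlaps exonic bases of Agpat2 on the opposite strand (16.2 ± 2.59 TPM, SD, n = 2), so reads of the pair cannot be told apart there unless counting used strand. Intron 7 of Egfl7-202 holds the hairpin of miR-126a (chr2:26591357-26591429, plus strand, RefSeq on GRCm38.p6), a microRNA known for endothelial signalling. The hairpin is printed with the mature miR-126a-3p in capitals, and the mature form again with its seed, bases 2 to 8, in capitals.
Mir126a hairpin: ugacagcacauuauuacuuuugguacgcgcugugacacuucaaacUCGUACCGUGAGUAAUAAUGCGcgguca
mmu-miR-126a-3p: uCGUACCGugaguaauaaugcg
Mir126a itself was listed at 0 in both libraries, made from polyadenylated RNA with a labelled size range above 200 bases, so mature microRNA was not measured. The nearest Egfl7 model after the hairpin, Egfl7-211, begins at chr2:26591434, with 4 bases between them, and it took 2.70% and 4.42% of the gene's TPM.

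**Figure D3:**
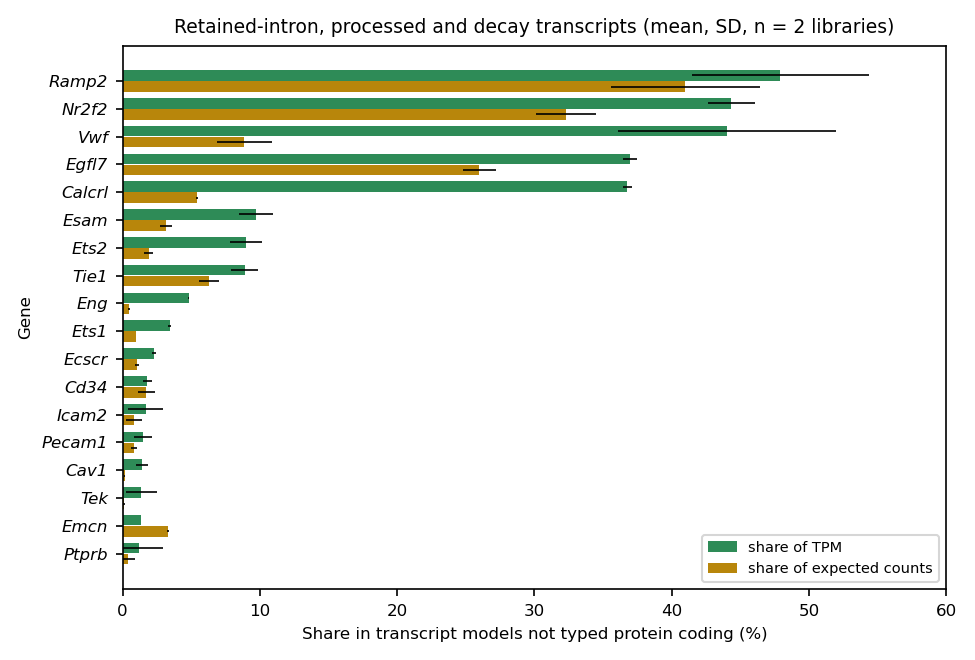
Mean share (percent, bars, with SD over 2 libraries as lines) of each gene's TPM and expected counts in transcript models not typed protein coding, for members with at least 1% of TPM there. Ramp2, Nr2f2, Vwf, Egfl7 and Calcrl exceed 36% by TPM, and for Vwf and Calcrl the share of counts is under 10%.

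Models not typed protein coding held at least 10% of TPM in 5 members, Ramp2, Nr2f2, Vwf, Egfl7 and Calcrl. Esam (9.69%), Ets2 (9.00%) and Tie1 (8.89%) lay just under that cut. By counts Vwf (8.86%) and Calcrl (5.42%) did not reach it. The same share was not computed over all genes. For every member the transcript with the highest mean share was protein coding. Of 27 members with more than 1 annotated transcript, 9 had a dominant transcript at 90% or more of TPM, and 6 had one under 50%. By TPM 25 of the 27 had the same leading transcript in both libraries, and the exceptions were Ramp2 and Erg. The tally under 50% depended on length. By mean share of counts the dominant transcripts of Vwf (87.2%), Calcrl (70.8%), Nr2f2 (59.7%) and Erg (53.25%) exceeded 50%. That of Ramp2 lay at this cut, and that of Egfl7 (48.7%) stayed under it.

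All 7 transcription factors were detected, at a lower median than the receptor and signalling genes (22.4 ± 0.95 against 52.1 ± 0.78 TPM, SD, n = 2). Ets1 and Ets2, broadly used ETS factors, had 51.3 and 53.0 TPM and 40.7 and 45.9 TPM. Fli1 and Erg, the ETS factors most tied to endothelial identity, were lower, at 15.8 and 15.6 TPM and 4.26 and 3.49 TPM. Fli1 exceeded Erg by a log2 ratio of 2.03 ± 0.19 (SD, n = 2), and Ets1 exceeded Ets2 by 0.27 ± 0.09. The 4 ETS genes sit as close neighbours on 2 chromosomes. Fli1 and Ets1 lie 93.4 kb apart on chromosome 9, and Erg and Ets2 lie 115.5 kb apart on chromosome 16, each pair pointing away from each other with no protein-coding gene between. Pecam1 and Icam2 were the other members close together, 266.1 kb apart on chromosome 11 with 2 protein-coding genes between.

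Nfatc1, a calcineurin-responsive factor of endocardium and valve formation, had 25.6 and 27.3 TPM. Its upstream start was preferred, with 86.0% and 94.65% of TPM. The split between models was uncertain. Nfatc1-203 had 349.3 and 22.7 estimated reads and Nfatc1-204 had 0 and 358.4, with assignment errors between 62.65 and 87.0 reads. Nfatc1-203 belongs to the downstream start and Nfatc1-204 to the upstream one, so the start shares carry this uncertainty too. Prox1, the factor of lymphatic endothelium, had 20.7 and 23.1 TPM, and its upstream start held 83.3% and 86.4%. Nr2f2, the factor COUP-TFII of veins and atria, had 21.7 and 20.65 TPM. By TPM their order changed between the libraries, with a Nr2f2/Prox1 log2 ratio of 0.07 in replicate 1 and -0.16 in replicate 2. The mean log2 ratio was -0.52 with the M4 annotation and -1.34 with counts not divided by length, so Nr2f2 was lower there. For Nr2f2 the retained-intron model Nr2f2-203 held 32.7% and 28.3%, and coding transcripts reached 11.8 and 11.7 TPM. The coding Nr2f2-201 led with 40.3 ± 3.22% of TPM (SD, n = 2), and with 79.3% in the M4 tables. Nr2f2 overlaps B130024G19Rik and Prox1 overlaps Prox1os on the opposite strand, at 2.99 ± 0.25 and 4.04 ± 0.13 TPM (SD, n = 2). Erg rested on 206 and 162 reads. Its 72-base exon was kept in 58.45% and 70.7% of TPM and its 69-base exon in 62.0% and 65.5%, and Erg-202 led in replicate 1 but Erg-203 in replicate 2.

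The promoters of 18 members were found in the RefSeq table (GRCm38.p6), as 24 windows from 250 bases before to 50 after a start. The letters CAGGAAG or CCGGAAG, forms of the ETS core site, were sought on both strands. They occurred in 8 of the 24 windows, of 7 genes (Sele, Cd34, Egfl7, Calcrl, Emcn, Erg and Apln), and in 20.9% of all 32851 windows.

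Against each other, the libraries differed by log2 ratios from -0.35 to 0.34 over the 35 members. The test was an exact two-sided binomial test on expected counts scaled by TMM, with Benjamini-Hochberg adjustment over 17970 genes. It compares these libraries, not conditions, and covers counting error only. None of the 35 members was called at an adjusted p under 0.05 and a change of at least 2-fold by this test, against 1.44% of all genes. With 35 members, 0 called cannot be told apart from that share. At an unadjusted p under 0.05 there were 10 of 35 members, against 21.8% of all genes. edgeR's exact test was run with a common dispersion estimated from these same 2 libraries. By that test 0 members had an adjusted p under 0.05, against 1.34% of all genes, and 1 had an unadjusted p under 0.05, against 7.97%. The median log2 ratio of the members, replicate 2 over replicate 1, was 0.05, against 0.00 for all genes tested. The ratio was above 0 in 24 of 35 members, against 49.9% of all genes tested, and in 23 to 26 of them under the other scalings, filters and the M4 tables.

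Without the fold threshold 6 members passed the binomial test. Passing as higher in replicate 2 were 4 members, against 4.63% of all genes, and as lower 2 members, against 5.01%. Ptprb had the largest ratio, with 1846 reads in replicate 1 and 2143 in replicate 2 (log2 ratio 0.34, 95% interval 0.25 to 0.43, adjusted p = 4.12e-11, exact binomial test). Prox1 (0.17, 0.10 to 0.24) and Ets2 (0.16, 0.09 to 0.22) were next, then Plvap (0.10, 0.05 to 0.15). Cav1 (-0.14, -0.22 to -0.07) and Tie1 (-0.12, -0.17 to -0.06) were lower. None of these 6 kept an adjusted p under 0.05 once edgeR's common dispersion was added, where Ptprb came nearest (adjusted p = 0.0782, edgeR exact test). That dispersion already holds the spread between these same 2 libraries, so this is no independent check. Prox1, also used in heart muscle and liver, had a log2 ratio of 0.17 beside medians of 0.02 for heart muscle and -2.21 for hepatocyte markers. Vwf and Pecam1, also made by megakaryocytes, had log2 ratios of 0.09 and 0.06 beside a median of 0.39 for the megakaryocyte markers. Aqp1, also used in red blood cells, had -0.06 beside a median of -0.14 for erythroid markers. Pdpn, also used in the epicardium, had -0.03 beside a median of -0.04 for epicardial markers. Of these members Prox1 alone passed. The part of other cell types in these ratios was not tested.

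**Figure D4:**
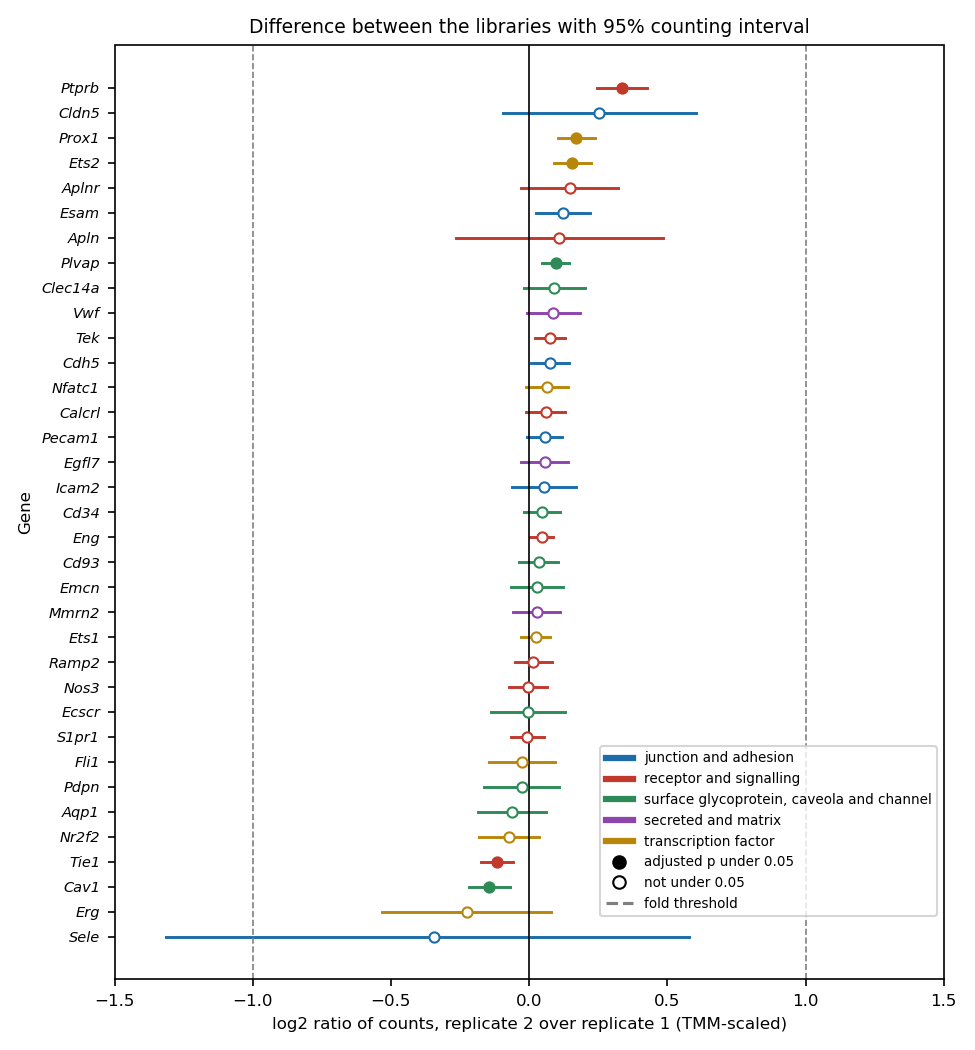
Log2 ratio of TMM-scaled counts, replicate 2 over replicate 1, for the 35 genes, ordered by ratio and coloured by role, with exact 95% counting intervals. Filled points have an adjusted p under 0.05, and dashed lines mark the fold threshold, which no point reaches. Sele has the widest interval, from -1.31 to 0.58.

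Other vascular genes were set beside the members from a list of 36. Of these, 33 were detected. The median over all 36 was 11.6 ± 0.25 TPM (SD, n = 2), below the 19.05 TPM of detected protein-coding genes. The highest were Nrp1, a VEGF and semaphorin co-receptor (105.4 and 107.2 TPM), Ephb4, the venous ephrin receptor (41.5 and 43.3 TPM), and Kdr, the main VEGF receptor (37.6 and 37.8 TPM). Angpt1, the ligand of Tek (32.6 and 36.2 TPM), and Rasip1, a regulator of vessel lumens (28.3 and 29.7 TPM), followed. Angpt1 passed as higher in replicate 2 (log2 ratio 0.11) and 3 genes passed as lower, with the count of the list again read against 4.63% and 5.01% of all genes. The lower genes were the blood and endothelial factor Tal1 (-0.31), the arterial factor Sox17 (-0.43) and Stab2, a scavenger receptor of sinusoidal endothelium (-1.05, 95% interval -1.73 to -0.42, adjusted p = 0.0133, exact binomial test). Stab2 was at 0.66 and 0.33 TPM and was the only gene of this list to reach the fold threshold and to lie under 1 TPM in both libraries. The hepatocyte markers were lower in the same library, and their part in the Stab2 value was not tested.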

How the data were processed

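Polyadenylated RNA of whole embryonic heart was measured in 2 libraries. The authors deposited gene and transcript tables holding the expected count (an estimated count that shares out reads with several places), TPM, FPKM and, per transcript, isoform percent, on mm10 with annotations M21 (used here) and M4, per the file headers and the text beside them. The sources used here name no aligner, counter or strand setting. TPM in the deposited tables includes spike-ins and mitochondrial genes; FPKM was not used. Expected counts were rounded. Rows without a gene held 0.000115% and 0.000117% of counts. With 1 library a side, edgeR's quasi-likelihood test has no residual degrees of freedom. An exact binomial test (smaller tail doubled) was therefore used on genes whose counts sum to 20 or more, with edgeR 4.0.16 TMM scaling. It was checked on simulated data for calls with the fold threshold only, not for passes without it. Log2 ratios use 0.5 added reads in each library, and the exact intervals use none. DESeq2 1.42.0 size factors were an alternative. Transcript shares are shares of the gene's TPM; starts within 500 bases were joined. Sequences came from GENCODE M21 and RefSeq tables through Python 3.11.15. All 35 members, 36 companion genes (5 highest, those under 1 TPM and those called), 7 marker lists (2 highest and those under 1 TPM) and 11 pairs were named by rule. Members and lists were chosen with earlier results of these data known. Binomial p-values cover counting error only; edgeR's alternative adds spread between these samples, which may be technical.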

Additional observations from a re-analysis of the deposited data

How the results depend on the processing

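No paired analysis was possible because the libraries form 1 group. Members detected numbered 34 at a TPM of 0.5, 33 at 2 and 31 at 5, and 34 on M4, with posterior mean TPM and in either library alone. The median of 38.7 TPM became 43.8 TPM when TPM was rescaled over nuclear genes only, as fewer genes then share the fixed total; it ran from 37.3 to 40.2 TPM with a replicate left out. No member was called under any of 7 alternatives. Members passing without the fold threshold numbered 6 or 7 under 6 alternatives and 0 with edgeR's common dispersion, which adds spread beyond counting. The median log2 ratio stayed between 0.03 and 0.05 under 8 alternatives. Of 105 alternative values of single log2 ratios, 102 kept their direction and side of the threshold, Tek passed on M4 (log2 ratio 0.08), and values near 0 changed sign without passing for Ramp2 with ERCC scaling (-9.77e-04) and Nos3 on M4 (7.26e-04). M4 lowered Ptprb to 0.722 and Nr2f2 to 0.745 of their M21 levels, and 33 members stayed within 10%; the cause was not tested. Pair ratios changed sign for Cd93/Mmrn2 with counts not divided by length (0.60), and between Tie1/Tek without replicate 1 (-0.10) and without replicate 2 (0.061) and Nr2f2/Prox1 without replicate 1 (-0.16) and without replicate 2 (0.069). Without a sign change, 3 of 11 pair ratios moved by more than their SD on M4, and 10 with counts not divided by length. By counts the dominant share rose from 47.0% to 87.2% for Vwf and from 49.7% to 70.8% for Calcrl. On M4 the dominant share of Nr2f2 was 79.3%. Depth limits Sele, Apln, Cldn5 and Erg, which had the fewest reads, 206 at most in a library.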
